A study of Mus musculus with 6 samples.

Results

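Hematopoietic stem cells (HSCs) express a set of surface proteins that are better known from the lining of blood vessels. The genes described here are *Esam*, *Procr*, *Tek*, *Tie1*, *Cldn5*, *Cdh5*, *Jam2*, *Jam3*, *F11r* and *Pecam1*, found by symbol in the deposited tables, 10 genes of 34745. They were listed with the KO and WT values of these same libraries already known, so every difference between the groups given for them is a description and carries no test. Of the 10 genes, 9 passed the filter on low counts and *Cdh5* did not. That filter keeps a gene that has reads in one group alone, as *Cldn5* had, so counts over the 9 genes are given without support for any direction.

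The data are bulk RNA-seq of HSCs sorted from the bone marrow of adult C57BL/6 mice as lineage-negative, Sca1+, cKit+ cells (LSK) that were CD150+, CD34- and CD48-. WT denotes Med23 flox/flox mice without the Cre transgene, which the study describes as littermates, and KO denotes Mx1-cre;Med23 flox/flox mice, with 3 libraries in each group. *Med23* encodes a subunit of Mediator, the complex that links transcription factors to RNA polymerase II, and the question is how the transcripts of HSCs differ when it is deleted. The methods describe a double sort and a small input of cells for each library. Both groups carry the floxed allele. In KO mice the Cre is driven by the interferon-responsive *Mx1* promoter and was induced by injection of poly(I:C), which itself triggers an interferon response. Cre under this promoter also acts outside blood cells, and the sources used here do not say whether the WT donors of these libraries were injected or whether a library came from 1 mouse. p-values therefore measure the spread between these libraries.

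As background, the proteins fall into 4 classes. ESAM, JAM-A (the product of *F11r*), JAM-B (*Jam2*), JAM-C (*Jam3*) and PECAM1 are immunoglobulin-family molecules at cell contacts, CLDN5 is a claudin that seals tight junctions, and CDH5 (VE-cadherin) holds adherens junctions between endothelial cells. TEK (TIE2) is the receptor of angiopoietins, TIE1 is its co-receptor, and PROCR (EPCR) binds protein C. ESAM and EPCR are used as surface markers of mouse HSCs, and signalling of angiopoietin-1 through TIE2 is known to keep HSCs quiescent in their niche.

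Promoter sequences were at hand from RefSeq (GRCm38.p6) for 5 of the 10 genes, *F11r*, *Procr*, *Tek*, *Tie1* and *Cldn5*, as windows of 300 bases with 250 before the start and 50 after it. The 250 bases before the start of *Cldn5* are shown because no read was counted on this gene in any KO library. They lie at chr16:18776597-18776846 on the plus strand, 5′ to 3′, and hold none of the 3 motifs searched.
Cldn5 upstream: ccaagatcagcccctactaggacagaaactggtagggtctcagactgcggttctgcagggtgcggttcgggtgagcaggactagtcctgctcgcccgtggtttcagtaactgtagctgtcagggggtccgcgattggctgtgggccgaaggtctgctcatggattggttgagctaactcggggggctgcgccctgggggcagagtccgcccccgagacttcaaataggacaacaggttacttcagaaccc
The motifs were the ETS core CCGGAA, the GATA core AGATAA and the EGR core GCGNGGGCG, on both strands, with N for any base. Of 32851 promoters of the same length, 14.9% held the ETS letters, 11.2% the GATA letters and 5.55% the EGR letters. Among the 5 promoters a single match was found, the GATA letters 36 bases after the start of *Tek*. The 30 bases around it, at chr4:94739309-94739338 on the plus strand, are shown with the match in capitals.
Tek window: ccggagcaggagcagaAGATAAgccttgga
A match of letters is a description of the sequence, not a binding site, and its absence says only that these letters are not in the window.

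Reads counted on genes numbered 4750410, 8131344 and 3537269 for WT and 4760545, 5281232 and 5132601 for KO, in the order of the replicate numbers, as are all triplets of values below. Levels are given as CPM, in which each library's counts were brought to the same total and adjusted with the trimmed mean of M values (TMM), and 3 counts, the floor used here, equal 0.369 to 0.927 CPM. Levels of the members are compared with one another as FPKM, which divides by gene length. The most abundant genes of a list, and the largest part of a sum, are named by CPM, which is not corrected for length. Over all genes the edgeR quasi-likelihood test passed 9 of 12513 genes at a Benjamini-Hochberg adjusted p under 0.05, 2 higher and 7 lower in KO, or 0.0719%. A total of 715 genes had an unadjusted p under 0.05. *Med23* itself, the deleted gene, had 47.6, 70.8 and 24.1 CPM in WT against 31.6, 29.8 and 36.8 CPM in KO. Its lowest level was thus found in the library labelled WT replicate 3, and the main values below are also given without it. HSC markers summed to between 3949 and 4368 CPM in WT and between 3902 and 4340 CPM in KO. The 10 genes of markers that the sort should leave out summed to between 355 and 428 CPM in WT and between 431 and 566 CPM in KO, with 0 of 3 tested genes past the edgeR threshold. Most of this was *Cd34*, named after its values were seen, at 296 to 360 CPM in WT and 384 to 520 CPM in KO without overlap, although the sort took cells negative for the CD34 protein. The part of such cells in the levels below was not tested.

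None of the 9 tested genes passed the threshold, beside 0.0719% of all genes. Of the 9, *Esam* and *Cldn5* had all KO values under all WT values. Over all genes tested, 12.4% did not overlap between the groups and 6.15% were lower in every KO library. Because the genes were chosen on this contrast, nothing is read from these counts.

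**Figure D1:**
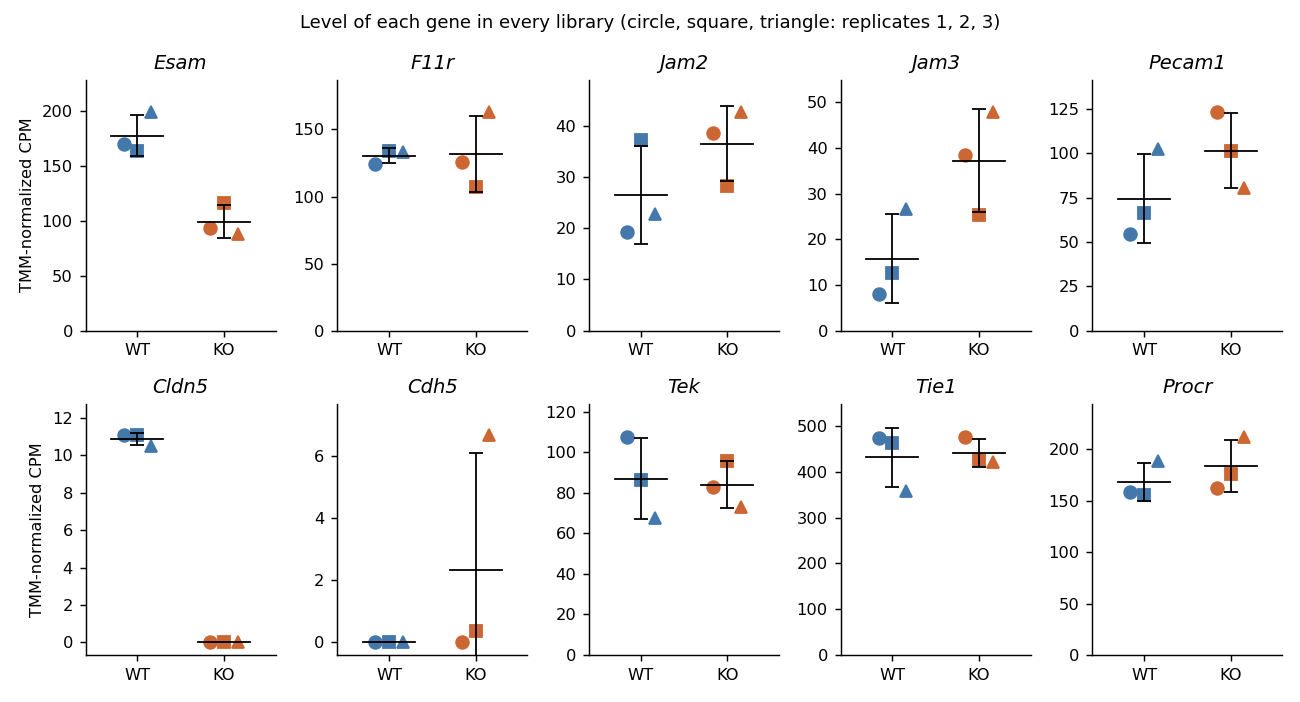
TMM-normalized CPM (vertical axes, linear) of the 10 genes in the 3 WT and 3 KO libraries, with the mean as a line and the SD as the bar. *Esam* lies between 163.6 and 198.7 CPM in WT and between 88.4 and 116.1 CPM in KO, and *Cldn5* is at 0 in all 3 KO libraries.

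*Esam* (ENSMUSG00000001946, chromosome 9 from 37528078 to 37538319, plus strand as for the other genes unless stated, with all coordinates from GENCODE M21, GRCm38) encodes the endothelial cell-selective adhesion molecule. Its levels were 170.2, 163.6 and 198.7 CPM in WT and 93.2, 116.1 and 88.4 CPM in KO. The lowest WT library was above the highest KO library, and within each group the values were close. The means were 177.5 ± 18.7 CPM in WT and 99.2 ± 14.8 CPM in KO (SD, n = 3), a log2 fold change of -0.84 (SE 0.22, 95% interval -1.33 to -0.35) or 0.560 of the WT level (0.398 to 0.787). Without WT replicate 3 it was -0.75. In counts these levels rest on 643 to 1331 reads in WT and 437 to 638 reads in KO. In bulk samples, fewer cells of a type and less RNA per cell cannot be told apart.

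*F11r* (ENSMUSG00000038235, chromosome 1 from 171437535 to 171464603) encodes JAM-A, a homophilic adhesion molecule that platelets and leukocytes also carry. Its levels were 124.3, 133.7 and 133.5 CPM in WT and 125.6, 106.8 and 162.7 CPM in KO. The KO libraries lay on both sides of the WT libraries. The difference was 0.01 on the log2 scale (SE 0.23, 95% interval -0.50 to 0.53), which covers levels between 0.706 and 1.44 of that in WT, and it was 0.03 without WT replicate 3.

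*Jam3* (ENSMUSG00000031990, chromosome 9 from 27097384 to 27155421, minus strand) encodes JAM-C, which binds JAM-B on neighbouring cells. It had 8.0, 12.7 and 26.6 CPM in WT and 38.5, 25.3 and 47.8 CPM in KO. A single pair of libraries made the groups overlap, the library labelled WT replicate 3 (26.6 CPM) and KO replicate 2 (25.3 CPM). The log2 fold change was 1.25 (SE 0.51, 95% interval 0.11 to 2.39), and 1.84 without WT replicate 3. This gene rests on 39 to 103 counts in WT and 139 to 236 counts in KO. An antisense gene, *Gm48796*, overlaps it, and the strand setting of the counting is not given in the sources used here, so reads of the pair cannot be told apart.

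*Jam2* (ENSMUSG00000053062, chromosome 16 from 84774123 to 84825928) encodes JAM-B, the partner of JAM-C. Its levels were 19.3, 37.4 and 22.9 CPM in WT and 38.7, 28.4 and 42.7 CPM in KO, and the groups overlapped. On the log2 scale the difference was 0.46 (SE 0.40, 95% interval -0.43 to 1.35), or 0.37 without WT replicate 3. A ribosomal RNA gene, *Gm25908*, lies within its bounds.

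*Pecam1* (ENSMUSG00000020717, chromosome 11 from 106654217 to 106750628, minus strand) encodes CD31, found on endothelium, platelets and many leukocytes. It had 54.5, 66.2 and 102.6 CPM in WT and 123.2, 101.2 and 80.5 CPM in KO. The library labelled WT replicate 3 exceeded KO replicates 2 and 3, so the groups overlapped. This gave a log2 fold change of 0.45 (SE 0.31, 95% interval -0.23 to 1.13), and it was 0.75 without WT replicate 3.

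Platelets and megakaryocytes carry JAM-A, JAM-C and PECAM1. Their 15 marker genes summed to between 206 and 324 CPM in WT and between 366 and 452 CPM in KO, with no overlap. The largest part was *Itga2b*, named after its values were seen, at 76.3 to 166.1 CPM in WT and 162.5 to 259.3 CPM in KO, with overlap. It encodes CD41, which the paper also uses as a marker of HSCs with myeloid potential, so the sum is not one of platelet transcripts alone. Of the 15, 4 were at 0 in every library and 9 were tested. Of those 9, 0 passed the edgeR threshold and 3 were higher at an unadjusted p under 0.05. The part of these transcripts in the levels of *Jam3*, *Pecam1*, *F11r* and the other members, *Esam* among them, was not tested.

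*Esam* and the JAM genes are related in sequence and function, so their FPKM values were also set against one another within each library. *Esam* made up 56.0, 51.0 and 54.6% of the summed FPKM of *Esam*, *F11r*, *Jam3* and *Jam2* in WT and 34.1, 44.9 and 28.0% in KO. *Jam3* made up 3.05, 4.58 and 8.46% in WT and 16.3, 11.4 and 17.5% in KO, without overlap. Its FPKM did not overlap either. The highest WT value was 8.47 FPKM in WT replicate 3, and the lowest KO value was 9.17 FPKM in KO replicate 2. In CPM, which also carries the TMM adjustment, this same pair overlapped. *F11r* held 33.7 to 38.3% in WT and 38.0 to 47.4% in KO, and *Jam2* held 3.27 to 6.06% in WT and 5.71 to 7.36% in KO. *Esam* was the largest of the 4 in all 3 WT libraries and in KO replicate 2, and *F11r* was the largest in KO replicates 1 and 3. The sum itself was 93.7 to 100.1 FPKM in WT and 80.8 to 91.3 FPKM in KO. Shares of a sum are tied, so a lower *Esam* level raises the other shares without any change in those genes. *F11r*, with a log2 fold change of 0.01, held up to 47.4% in KO against at most 38.3% in WT. The shares therefore do not show which of the 4 genes differed, and *Esam* was among the genes chosen on this contrast.

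**Figure D2:**
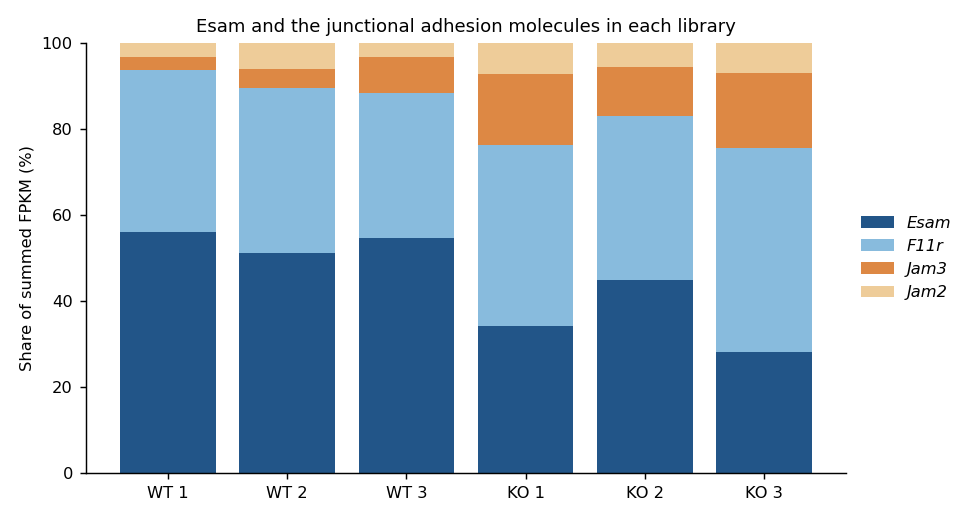
Share (vertical axis, % of summed FPKM) of *Esam*, *F11r*, *Jam3* and *Jam2* in each of the 6 libraries (horizontal axis). The *Esam* share is 51.0 to 56.0% in WT and 28.0 to 44.9% in KO, and the *Jam3* share is 3.05 to 8.46% in WT and 11.4 to 17.5% in KO.

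*Cldn5* (ENSMUSG00000041378, chromosome 16 from 18776847 to 18778262) encodes claudin-5, the main claudin of vascular endothelium. The WT libraries held 54, 90 and 34 counts of it and the KO libraries 0 counts each. In WT this was 11.1, 11.1 and 10.5 CPM, a narrow range that the library labelled WT replicate 3 shared. Set against the floor of 3 counts in each KO library, the mean of 10.9 ± 0.322 CPM in WT (SD, n = 3) was at least 18.5-fold higher than in KO. The sequence printed above is the stretch directly before this gene. *Cldn5* did not pass the edgeR threshold, and it did in 3 of the 14 alternative fits that could be made for it. These passes carry no support, because the gene was listed with this contrast known and had counts in WT alone.

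Transcripts of skeletal muscle moved with the groups in the same direction as *Cldn5*. The 15 genes of that marker list summed to 248, 171 and 432 CPM in WT and to 10.3, 40.4 and 11.1 CPM in KO, 11 of 13 tested genes did not overlap, and 3 passed the edgeR threshold, all lower in KO. A count of genes at 0 throughout KO that reached 30 counts or more in each WT library, a minimum set after the values were seen, gave 15 genes, 6 of them in the muscle list, and 0 genes the other way round. *Cldn5* was among the 15, beside *H19* and the muscle genes *Chrna1*, *Tnni1*, *Myh1*, *Actn2* and *Flnc*. These muscle genes are not in the muscle list, and they and *H19* were named after their values were seen. Also among the 15 was *mt-Co2*, a mitochondrial gene that all cells use. It had 209, 495 and 367 counts in WT and 0 in every KO library. An exact 0 in this table therefore need not mean that a gene was not expressed, and the bound given for *Cldn5* holds for the deposited counts only. The counts of *Cldn5* in WT fell on replicates 1 to 3 as 30.3, 50.6 and 19.1%, where all counted reads fell as 28.9, 49.5 and 21.5% and the muscle list as 30.3, 34.8 and 35.0%. The part of muscle RNA in the level of *Cldn5* was not tested.

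**Figure D3:**
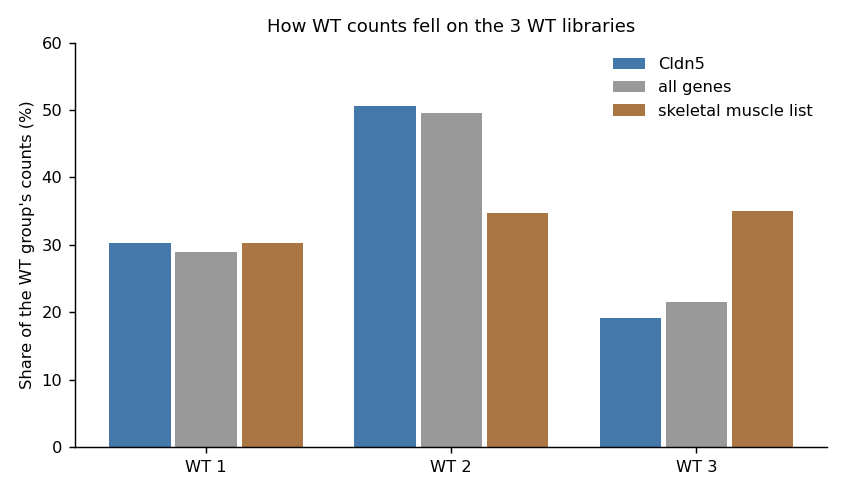
Share (vertical axis, % of the counts of the WT group) that fell on each of the 3 WT libraries (horizontal axis), for *Cldn5*, for all genes and for the skeletal muscle list. The bars of *Cldn5* are 30.3, 50.6 and 19.1%, those of all genes 28.9, 49.5 and 21.5%, and those of the muscle list 30.3, 34.8 and 35.0%.

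*Cdh5* (ENSMUSG00000031871, chromosome 8 from 104101625 to 104144511) encodes VE-cadherin, the defining cadherin of endothelium. It had 0 counts in all 3 WT libraries and in KO replicate 1, 2 counts in KO replicate 2 and 33 counts (6.68 CPM) in KO replicate 3. Its signal thus came almost wholly from 1 library, no fold is given, and an antisense gene, *Gm29682*, overlaps it. The 24 markers that define endothelial cells were also low. Of these, 8 had no more than 3 counts in every library and 6 of the 8 were at 0 throughout, among them *Sox17*, *Sox7*, *Sele* and *Nos3*. These and the next markers were named after their values were seen. A total of 5 of the 24 were tested by edgeR, 0 passed, and 1 was lower at an unadjusted p under 0.05. That gene was *Ecscr*, a surface protein of endothelial cells, with 20.3, 18.7 and 32.1 CPM in WT and 9.72, 8.37 and 12.3 CPM in KO (log2 fold change -1.22, SE 0.48). Its groups did not overlap, in the direction of *Esam* and *Cldn5*, and the part of endothelial RNA in those levels was not tested. *Selenop* (listed as *Sepp1*), which is abundant here at 346 to 456 CPM, made up most of the list, and the other 23 genes summed to between 36.9 and 76.6 CPM in WT and between 26.0 and 48.0 CPM in KO. The description of the 10 genes as endothelial in type names where they are best known. Most of the 24 marker transcripts were low in these libraries, and the summed level of the other 23 exceeded that of *Cldn5* in every WT library.

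*Tek* (ENSMUSG00000006386, chromosome 4 from 94739289 to 94874976) encodes the angiopoietin receptor. Its levels were 107.6, 86.1 and 67.4 CPM in WT and 83.1, 95.9 and 72.8 CPM in KO. The KO libraries all lay inside the range of the WT libraries. The log2 fold change was -0.05 (SE 0.27, 95% interval -0.66 to 0.55), so a difference within 0.634 to 1.46 of the WT level could not be resolved with 3 libraries a group.

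*Tie1* (ENSMUSG00000033191, chromosome 4 from 118471191 to 118490061, minus strand) encodes the co-receptor and lies on the same chromosome as *Tek*. It had 473.2, 462.8 and 357.9 CPM in WT and 476.3, 425.0 and 420.9 CPM in KO, again overlapping. The log2 fold change was 0.03 (SE 0.19, 95% interval -0.39 to 0.46). Without WT replicate 3 the values of *Tek* and *Tie1* were -0.21 and -0.09. In FPKM, *Tie1* exceeded *Tek* by 5.49, 6.71 and 6.64 times in WT and by 7.17, 5.54 and 7.22 times in KO, and these ratios overlapped.

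*Procr* (ENSMUSG00000027611, chromosome 2 from 155751117 to 155755471) encodes EPCR. Its levels were 158.3, 156.1 and 189.1 CPM in WT and 162.7, 176.2 and 212.3 CPM in KO. The groups overlapped, with a log2 fold change of 0.13 (SE 0.21, 95% interval -0.34 to 0.60), and of 0.23 without WT replicate 3. *Esam*, whose protein was named above beside EPCR as a surface marker of mouse HSCs, had -0.84.

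These markers were compared inside each library, where scaling and depth cancel. The FPKM of *Esam* divided by that of *Procr* was 1.22, 1.19 and 1.19 in WT and 0.649, 0.747 and 0.472 in KO. *Esam* exceeded *Procr* in every WT library and was below it in every KO library. The means were 1.20 ± 0.0169 and 0.623 ± 0.139 (SD, n = 3), so the WT ratios were nearly constant and the KO ratios spread more. Divided by *F11r*, *Esam* gave 1.49, 1.33 and 1.62 in WT and 0.807, 1.18 and 0.591 in KO, and *Jam3* gave 0.0812, 0.119 and 0.251 in WT and 0.387, 0.299 and 0.370 in KO, both without overlap. A ratio shows that its members differed unequally, not which of them differed, and *Esam* was among the genes chosen on this contrast.

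**Figure D4:**
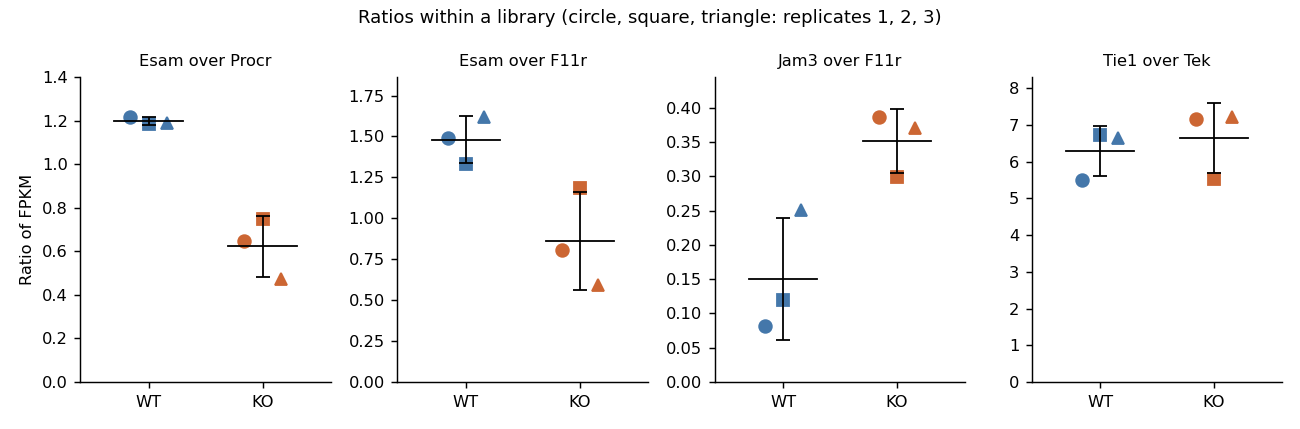
Ratios of FPKM (vertical axes, linear from 0) within each of the 3 WT and 3 KO libraries, with the mean as a line and the SD as the bar. *Esam* over *Procr* is 1.19 to 1.22 in WT and 0.472 to 0.747 in KO, while *Tie1* over *Tek* overlaps between the groups.

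Per unit of gene length the order of the 10 genes in WT was led by *Tie1*, with 70.4 ± 14.2 FPKM (SD, n = 3). *Esam* (52.1 ± 2.74), *Procr* (43.5 ± 2.25) and *F11r* (35.3 ± 1.61 FPKM) followed it. Lower were *Tek* (11.4 ± 3.23), *Pecam1* (8.03 ± 2.18), *Cldn5* (7.55 ± 0.664), *Jam3* (5.25 ± 2.90) and *Jam2* (4.07 ± 1.54 FPKM), and *Cdh5* was listed at 0. In that order *Tie1* and *Esam* overlapped between libraries, *Esam*, *Procr* and *F11r* each stood clear of the next, and the neighbours from *Tek* down to *Jam2* overlapped. In KO, *Tie1* (73.9 ± 7.36 FPKM) was followed by *Procr* (49.2 ± 4.76), *F11r* (36.7 ± 6.31) and *Esam* (30.3 ± 5.47 FPKM). *Esam* came directly after *Tie1* in WT and after *F11r*, with which it overlapped, in KO. The middle of the KO order held *Jam3* (13.0 ± 3.51), *Pecam1* (11.5 ± 2.8) and *Tek* (11.3 ± 1.96 FPKM), which overlapped, and then *Jam2* (5.77 ± 1.0 FPKM).

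**Figure D5:**
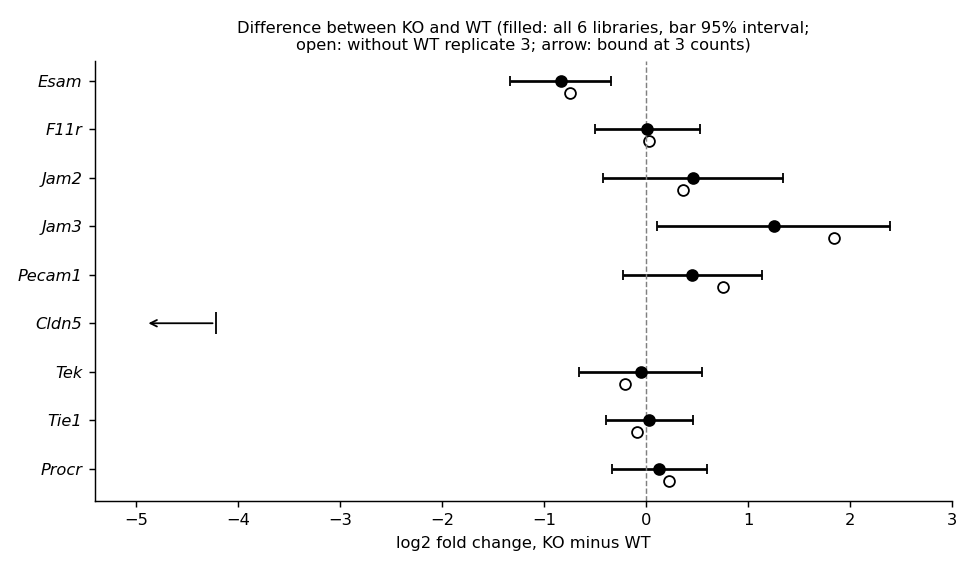
log2 fold change of KO minus WT (horizontal axis) for the 9 genes tested (vertical axis), with all 6 libraries (filled points, 95% interval as the bar) and without WT replicate 3 (open points). *Esam* is at -0.84, *Jam3* at 1.25 or 1.84 without that library, and the arrow of *Cldn5* starts at the bound of an 18.5-fold difference, since its KO libraries are at 0.

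The genes around these members were described by lists chosen by known role, and over all genes tested the median log2 fold change was -0.0054. Of the ligands and signalling partners of *Tek* and *Tie1*, 23 were found and 18 tested. None passed the edgeR threshold (lowest adjusted p = 0.50), and 1 was higher and 1 lower at an unadjusted p under 0.05. The median log2 fold change was 0.15. *Angpt1*, the activating ligand of TIE2, had 724.2, 797.8 and 559.4 CPM in WT and 436.8, 481.9 and 384.9 CPM in KO. All 3 KO libraries were below the WT libraries, with a log2 fold change of -0.68 (SE 0.20) that missed the threshold. *Pik3r1*, a regulatory subunit of PI3 kinase, had 406 to 441 CPM in WT and 480 to 548 CPM in KO (log2 fold change 0.28, SE 0.18). *Foxo3* (-0.14) and *Itgb1* (-0.11), a transcription factor restrained by AKT and an integrin subunit, overlapped. *Ptprb*, the endothelial phosphatase that opposes TEK, named after its values were seen, was at 0 in 5 libraries and at 2.55 CPM in KO replicate 2. Neither *Tek* nor *Tie1* stood apart between the groups, and *Angpt1* gave non-overlapping values. Over all genes tested, 12.4% did not overlap in either direction, so nothing is read from this. Whether *Angpt1* differed from *Tek* and *Tie1* in its change was not tested.

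Of the protein C and thrombin receptor list around *Procr*, 23 genes were found and 12 tested. None passed (lowest adjusted p = 0.91 by edgeR), none had an unadjusted p under 0.05, and the median log2 fold change was -0.47. The most abundant were *F2r*, the thrombin receptor PAR1 (145.6 to 171.0 CPM in WT and 76.6 to 161.1 CPM in KO), and *F2rl3*, the receptor PAR4 (128.6 to 154.5 CPM in WT and 84.4 to 117.5 CPM in KO). The groups did not overlap for *F2rl3* (log2 fold change -0.47, SE 0.23) and overlapped for *F2r*. *Adam17*, a sheddase of EPCR (0.27), and *S1pr1*, a receptor for sphingosine 1-phosphate (-0.47), overlapped as well. *Procr* itself, at 0.13, was above that median.

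Among other junction and adhesion molecules, 29 of 30 listed genes were found, 16 were tested and 0 passed (lowest adjusted p = 0.84 by edgeR). The median log2 fold change was -0.13, with 0 genes higher and 1 lower at an unadjusted p under 0.05. *Icam2* (-0.14), *Icam1* (0.08), the tetraspanin *Cd151* (-0.65) and the claudin *Cldn12* (-0.58) were the most abundant, and all 4 overlapped between the groups. *Cldn12* remained detected in every KO library, at 23.5 to 35.8 CPM, unlike *Cldn5*.

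Of the scaffolds and linkers that bind the tails of junction proteins, 37 of 38 were found, 32 were tested and 0 passed (lowest adjusted p = 0.34 by edgeR). The median log2 fold change was 0.14, with 3 genes higher and 2 lower at an unadjusted p under 0.05. The most abundant were the focal adhesion protein *Zyx* (0.21), *Heg1* (-0.34), the small GTPase *Rap1b* (0.24) and β-catenin, *Ctnnb1* (0.13), and their groups overlapped. *Tjp1* was named after its values were seen. It encodes ZO-1, a scaffold of tight junctions to which claudins and JAMs bind, and had 13.7, 36.6 and 11.7 CPM in WT and 3.85, 1.82 and 1.62 CPM in KO. All 3 KO libraries were below WT, with a log2 fold change of -3.09 (SE 0.73) that missed the edgeR threshold and passed with DESeq2.

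Of the genes known in both HSCs and endothelium, 44 were found, 38 were tested and 0 passed (lowest adjusted p = 0.36 by edgeR). The median log2 fold change was -0.01, with 3 genes higher and 3 lower at an unadjusted p under 0.05. Of the 38 tested, 3 genes were higher in every KO library than in any WT library and 5 were lower. Over all genes tested, 12.4% did not overlap and 6.15% were lower in every KO library, and nothing is read from these counts. The 3 were *Mecom*, *Cd34* and *Selp*, and the 5 were *Egfl7*, *Ly6a*, *Vwf*, *Cavin2* (listed as *Sdpr*) and *Etv6*, named after their values were seen. The most abundant genes of the list were the transcriptional regulator *Lmo2* (-0.44), the tetraspanin *Cd81* (0.32), the adhesion receptor *Adgrl4* (0.26) and the homeobox gene *Meis1* (0.48), all with overlapping groups. *Vwf* and *Selp*, named after their values were seen, encode von Willebrand factor and P-selectin, which endothelial cells and platelets store together. *Vwf* had 336.7, 192.7 and 181.1 CPM in WT and 106.8, 146.0 and 67.8 CPM in KO (log2 fold change -1.15, SE 0.33). *Selp* had 128.8, 110.1 and 83.4 CPM in WT and 193.9, 190.7 and 267.3 CPM in KO (log2 fold change 1.01, SE 0.25). The groups did not overlap for either gene, the directions were opposite, and neither passed the edgeR threshold.

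The genes most alike *Esam* across the 6 libraries, by Pearson's r of log2(CPM + 0.5) over 10136 genes with a mean of at least 50 counts, were *Tnfsf13os* (r = 0.990), *Tst* (0.988) and *Yif1b* (0.987). For *Procr* they were *Lst1* (0.978), *Prkd2* (0.977) and *Arl6ip5* (0.976), and for *Tek* *Sqrdl* (0.994), *Ywhaq* (0.991) and *Ikbke* (0.987). Over only 6 libraries these values single out no gene, since 112, 126 and 129 of the 10136 genes had an r above 0.9 with *Esam*, *Procr* and *Tek*.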

How the data were processed

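RNA from sorted HSCs was sequenced in 3 WT and 3 KO samples, with groups and replicate numbers taken from the sample labels. The labels name SMART-Seq v4 amplification and the paper's methods a TruSeq kit, and neither mentions molecular identifiers. The authors deposited counts per gene, not normalized, and FPKM, which equal the counts divided by a single gene length and by the library's total (differences of at most 0.00713%). The submitters' processing notes name TopHat, HTSeq and mm10. The strand setting is not given in the sources used here.

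The counts were tested with edgeR 4.0.16 under R 4.3.3 (filterByExpr, TMM, robust quasi-likelihood test, Benjamini-Hochberg adjustment over all genes tested), and the procedure was tested on simulated counts. Alternatives used DESeq2 1.42.0, limma 3.58.1 on log2(FPKM + 1) and log2(FPKM + 0.1), upper-quartile scaling, other filters, a replicate block and left-out libraries. Genes, lists and tests were chosen with earlier results of these data known. Named genes are the 10 members, *Med23*, list genes past the threshold or otherwise the 4 most abundant of each list, the 3 genes most alike *Esam*, *Procr* and *Tek*, and those marked as named after their values were seen. Of the list genes, 8 were matched by identifier through their current symbol. Of the identifiers, 34267 were in the GENCODE M21 table.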

Additional observations from a re-analysis of the deposited data

How the results depend on the processing

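Over all genes, the 9 calls of edgeR became 120 with DESeq2 (50 higher), 15 with limma on log2(FPKM + 1) at a mean FPKM of at least 1, and 5 with the replicate block. They ranged from 5, without WT replicate 1, to 11 when single libraries or both replicates 3 were left out, and were 7 to 13 in the other fits. Among the members, 0 became 1, *Cldn5*, with DESeq2 and with limma on log2(FPKM + 1) with and without the filter. *Cldn5* could not be fitted where every sample had to reach 10 counts. Among the scaffolds 0 became 1 (*Tjp1*) and among the genes shared with endothelium 0 became 1 (*Selp*) with DESeq2. The calls of the other 3 lists stayed at 0 in every fit, and leaving out libraries kept the members and these 5 lists at 0. The marker lists were not run under the alternatives. The log2 fold change of *Esam* stayed between -0.96 and -0.66 over 15 alternatives, with adjusted p from 0.074 (DESeq2) to 0.89, and that of *Jam3* between 0.94 and 1.84. *Tek*, *Tie1* and *F11r* had the other sign in 5, 3 and 4 of 15. The cause of these shifts was not tested. Deviations of same-numbered libraries correlated at 0.170, 0.0324 and 0.170, and those of unequal numbers at -0.173 to 0.0350. Only WT replicate 2 correlated best with another number, at 0.0350 with KO replicate 1 against 0.0324 with KO replicate 2. The labels do not say that equal numbers share an animal or a day. The numbers were therefore not taken as pairs in the main fit, and the replicate block was an alternative. The order of the 10 genes by mean level over all 6 libraries was the same in FPKM and in TMM-normalized CPM per kilobase. These scales differ only by a factor for each library, so the order could hardly change. The separate WT and KO orders were not compared in this way. Genes under about 100 counts, such as *Cldn5* and *Jam3* in WT, carry the largest counting error, and 3 libraries per group limit all intervals.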
